A study of Mus musculus with 24 samples.

Results

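The proteins of the cytosolic ribosome are encoded by a family of nuclear genes named Rpl for the large subunit and Rps for the small subunit. The members described here were the rows of the count matrix whose symbol begins with Rpl or Rps and a digit, plus Rplp0, Rplp1, Rplp2 and Rpsa. Processed pseudogenes named with -ps (263 rows) and the Rps6k kinases (10 rows) were left out. The rule found 92 genes among 48526 rows. Of these, 77 were canonical ribosomal protein genes (46 large, 31 small), 14 were paralogs or annotated copies, and 1, Rps19bp1, is named for its partner and does not encode a ribosomal protein. Fau and Rack1 encode ribosomal components under other names and lie outside the rule.

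Ribosomes are built in the nucleolus, where ribosomal RNA made by RNA polymerase I joins proteins imported from the cytoplasm. Each ribosome holds a single copy of nearly every protein, and the stalk proteins Rplp1 and Rplp2 are present in more copies. Most ribosomal protein mRNAs start with a run of pyrimidines, the 5′ terminal oligopyrimidine tract, through which mTOR signalling and Larp1 control their translation. Surplus Rpl5 and Rpl11, bound to 5S ribosomal RNA, can hold the p53 ligase Mdm2.

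The data were 24 bulk RNA-seq libraries from renal cortex of C57BL/6 mice, 6 in each of 4 groups. Mice were 6 weeks old at the start and were followed for 24 weeks. Diabetic mice had received 5 daily intraperitoneal injections of streptozotocin at 55 mg/kg, a toxin of pancreatic beta cells, and non-diabetic mice had received sodium citrate. In each state, mice drank water alone (vehicle) or water with PMX-53, a cyclic peptide that blocks the complement receptor C5aR1, at 2 mg/kg. The comparisons ask what diabetes does to these genes and whether blocking the receptor changes it.

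Libraries held 10964992 to 22000895 counts, and the whole family took 0.629% to 0.87% of them. Libraries were made after depletion of ribosomal RNA. Annotated ribosomal RNA genes, mitochondrial ones included, still took 16.7% to 27% of counts, with means of 18.8% in non-diabetic vehicle, 24.8% in diabetic vehicle, 19% in non-diabetic PMX-53 and 21.7% in diabetic PMX-53 mice. Counts of members called in a fit without mitochondrially encoded and ribosomal RNA genes are given in the last section. Beyond that, the part of these shares in the results was not tested. Genes of the mitochondrial genome took 20.1% to 24.6% of counts in both non-diabetic groups, 25.9% to 31.9% in diabetic vehicle mice and 22.2% to 29% in diabetic PMX-53 mice. The mitochondrial and ribosomal RNA shares overlap and do not add up. Mitochondrial ribosomal RNA genes are counted in both, and they made up nearly all of the ribosomal RNA share. Proximal tubule markers summed to between 12400 and 20900 normalized CPM (counts relative to the library's scaled total) per library, as in cortex, and striated muscle markers to between 0.508 and 1.83, with Myh2 and Myh4 at 0. The labels do not say that libraries came from separate mice, so p-values measure the spread between these libraries. In bulk tissue, fewer cells of a type and less RNA per cell cannot be told apart, and a change in total RNA per cell is not visible on this scale.

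Promoter windows were read because the family is known for its pyrimidine start. RefSeq (GRCm38.p6) gave windows from 250 bases before to 50 after the start for 57 of the 77 canonical members. A run of at least 6 C or T that begins with C within 10 bases of the start was present in 32 of their 67 windows (47.8%), against 19.2% of all 32851 windows. The 12 stretches below span 40 bases before to 20 after the annotated start, with that run in capitals. The first 8 hold the run and the last 4 do not. Among those with it are members that rose (Rpl12, Rps24, Rps2) and members that did not pass (Rps9, Rps10) with diabetes on vehicle, the S6 kinase substrate Rps6, and the pair Rps27 and Rps27l. Among those without it are members that rose (Rps16, Rpl36a) and members that did not pass (Rpl5, Rpl10).
Rpl12, chr2:32961672-32961731, plus strand: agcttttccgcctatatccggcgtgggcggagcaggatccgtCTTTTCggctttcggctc
Rps24, chr14:24490638-24490697, plus strand: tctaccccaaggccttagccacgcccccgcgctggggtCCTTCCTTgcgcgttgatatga
Rps2, chr17:24720023-24720082, plus strand: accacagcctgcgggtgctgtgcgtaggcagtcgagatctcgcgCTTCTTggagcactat
Rps9, chr7:3704001-3704060, plus strand: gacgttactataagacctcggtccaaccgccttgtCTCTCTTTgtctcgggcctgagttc
Rps10, chr17:27635225-27635284, minus strand: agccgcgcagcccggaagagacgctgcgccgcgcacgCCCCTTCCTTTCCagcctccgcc
Rps6, chr4:86857348-86857407, minus strand: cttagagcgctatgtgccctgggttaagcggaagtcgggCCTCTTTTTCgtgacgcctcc
Rps27, chr3:90213629-90213688, minus strand: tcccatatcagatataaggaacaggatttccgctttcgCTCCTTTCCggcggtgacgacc
Rps27l, chr9:66946046-66946105, plus strand: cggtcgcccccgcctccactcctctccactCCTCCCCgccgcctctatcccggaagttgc
Rps16, chr7:28350649-28350708, plus strand: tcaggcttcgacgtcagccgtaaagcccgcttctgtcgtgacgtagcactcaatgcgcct
Rpl36a, chrX:134585614-134585673, plus strand: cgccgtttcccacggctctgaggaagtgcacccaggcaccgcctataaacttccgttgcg
Rpl5, chr5:107900488-107900547, plus strand: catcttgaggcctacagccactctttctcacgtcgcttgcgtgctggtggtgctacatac
Rpl10, chrX:74270776-74270835, plus strand: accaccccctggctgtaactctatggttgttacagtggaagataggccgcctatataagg

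The same windows were searched on both strands for 4 short motifs. CCGGAA, the core of ETS factor sites, was in 49.3% of the members' windows against 14.9% of all windows. AAGATGGC was in 10.4% against 2.75%, CACGTG in 11.9% against 7.15%, and TATAAA in 8.96% against 13.6%. A match is a description of the letters and shows no binding.

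Levels differed widely within the family. In non-diabetic vehicle mice, the level per kilobase of the shortest transcript with the full coding sequence had a median of 104 CPM per kb over the 76 canonical members tested. Rplp1, a stalk protein that helps recruit elongation factors, was highest at 307 CPM per kb. Rpl13a was lowest among those tested, at 8.1 CPM per kb, and the next lowest was at 17.6. Rpl13a lies at chr7:45125558-45128761 (minus strand, GRCm38), holds 4 snoRNA genes and shares exons on its own strand with Gm45713 and Mir5121. How the counting treated such reads was not tested. Rpl24 had 100 counts in all 24 libraries together, shares same-strand exons with Gm28037, and was too low to test.

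A filter on low counts left 86 of the 92 members: 76 canonical genes, 9 paralogs or copies, and Rps19bp1. Besides Rpl24, the genes left out were Rpl39l, Rps27rt, Rpl10l, Rps3a2 and Rps12l1. Within a group, the canonical members varied little between libraries. The median coefficient of variation was 5.83% in non-diabetic vehicle, 8.14% in diabetic vehicle, 5.19% in non-diabetic PMX-53 and 7.04% in diabetic PMX-53 mice.

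Ribosomal protein mRNAs rose together in the cortex of diabetic mice on vehicle. The summed level of the family was 6680 ± 186 CPM (SD, n = 6) in non-diabetic and 8230 ± 501 CPM (SD, n = 6) in diabetic vehicle mice, which is 23.3% higher. Every diabetic vehicle library (7443 to 8924 CPM) lay above every non-diabetic vehicle library (6448 to 6851 CPM) on this scale. As a plain share of all counts the groups overlapped, at 0.675% ± 0.0346 (SD, n = 6; 0.63% to 0.716%) in non-diabetic and 0.781% ± 0.0716 (SD, n = 6; 0.71% to 0.87%) in diabetic vehicle mice. With mitochondrial and ribosomal RNA genes left out of the total, the shares were 0.832% to 0.914% and 0.987% to 1.25%, without overlap. Diabetic vehicle replicate 4 was the lowest of its group at 7443 CPM. Diabetic mice on PMX-53 stood at 6840 ± 352 CPM (SD, n = 6), between 6407 and 7307 CPM, and non-diabetic mice on PMX-53 at 6790 ± 227 CPM (SD, n = 6). No diabetic PMX-53 library reached the lowest diabetic vehicle library on this scale. As a plain share of all counts diabetic PMX-53 mice had 0.702% ± 0.0203 (SD, n = 6; 0.671% to 0.724%), and their range overlapped that of diabetic vehicle mice.

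**Figure D1:**
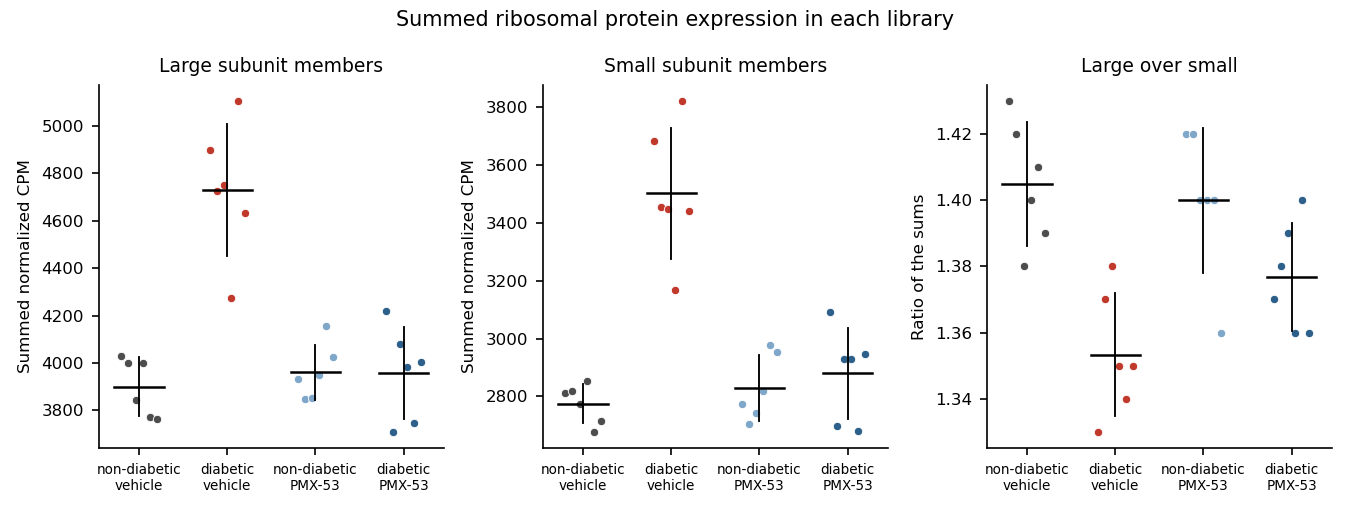
Summed normalized CPM of large subunit members, of small subunit members, and their ratio, in each library (points), with group mean (horizontal line) and SD (vertical line), n = 6 per group. Diabetic vehicle mice stand above the other 3 groups in both sums. Their ratio has the lowest mean, 1.35. Its range of 1.33 to 1.38 overlaps that of diabetic PMX-53 mice (1.36 to 1.4) and non-diabetic PMX-53 mice (1.36 to 1.42).

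Gene by gene, edgeR's quasi-likelihood test over 15808 genes, with Benjamini-Hochberg adjustment and a threshold of 0.05, called 69 of 86 members higher and 2 lower in diabetic than in non-diabetic vehicle mice. Over all genes tested, 40.3% were called, 20.4% higher and 19.9% lower. The members' median log2 fold change was 0.28, against -0.001 for all genes. The single changes were small, from -0.33 to 0.65 over canonical members, and 74 of the 76 canonical values were above 0. For 45 members every diabetic library lay above every non-diabetic one, against 7.86% of all genes. On raw totals without a scaling factor, the median of all genes was -0.09, the members' median 0.19 and the calls 43 higher and 2 lower. With that scaling 31.2% of all genes called were higher, against 50.7% with the factor.

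The stalk of the large subunit, where elongation factors bind, held the largest canonical rises. Rpl12, at the base of the stalk, had 72.3, 75.4 and 79.7 CPM (lowest, median, highest) in non-diabetic vehicle and 93.4, 120 and 147 CPM in diabetic vehicle mice. The groups did not overlap, and the log2 fold change was 0.65 (SE 0.08, edgeR adjusted p = 2.9e-07). Rplp1 rose from 139, 156 and 165 to 198, 237 and 274 CPM, again without overlap (log2 fold change 0.62, SE 0.07, edgeR adjusted p = 5.41e-08). Its anchor Rplp0, often used as a reference gene in quantitative PCR, had 233, 247 and 272 CPM in non-diabetic and 292, 322 and 340 CPM in diabetic vehicle mice. That change was 0.35 (SE 0.06, edgeR adjusted p = 1.51e-05). Rplp2, the partner of Rplp1, rose by less, 0.21 (SE 0.05, edgeR adjusted p = 0.00166), and its groups overlapped at 68.2 and 68.8 CPM. On raw totals the Rplp2 call was lost (0.12, edgeR adjusted p = 0.248). Lrsam1 exons overlap Rpl12 on the opposite strand, and whether counting used the strand is not given in the sources used here.

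Small subunit members showed the same direction. Rps2, at the mRNA entry channel, had 141, 153 and 158 CPM in non-diabetic and 201, 220 and 239 CPM in diabetic vehicle mice (log2 fold change 0.52, SE 0.05, edgeR adjusted p = 3.19e-08). Rps24, one of the genes mutated in Diamond-Blackfan anaemia, went from 87.4, 95.8 and 111 to 121, 139 and 155 CPM (0.51, SE 0.07, edgeR adjusted p = 4.33e-06). Neither gene's groups overlapped. Rps16 rose by 0.54 (SE 0.06, edgeR adjusted p = 2.71e-07). Rpsa, which also serves as a laminin-binding protein, rose by 0.42 (SE 0.06, edgeR adjusted p = 4.36e-06). Rps27a, made as a fusion with ubiquitin, rose by 0.25, and Rps6, the substrate of S6 kinase, by 0.16 (edgeR adjusted p = 0.0391). On raw totals the calls of Rps27a (0.15, edgeR adjusted p = 0.173) and Rps6 (0.06) were lost. The Rps6 call was also lost in 7 of 12 fits that each left out 1 library (adjusted p 0.0132 to 0.098).

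Of 76 canonical members 67 rose with diabetes on vehicle, against 20.4% of all genes. Differences from the family's share by position in the ribosome were not tested. All 4 stalk members rose (3 on raw totals, without Rplp2). So did 4 of 6 at the peptidyl transferase centre and exit tunnel, and 4 of 5 at the mRNA channel. Rpl3 (0.20), Rpl4 (0.14), Rpl8 (0.16) and Rpl39 (0.43) passed among the 6, while Rpl10 (-0.01) and Rpl17 (0.09) did not; Rpl4 and Rpl8 are named here after their values were seen. The Rpl3 call was lost on raw totals (0.10, edgeR adjusted p = 0.373). The 5S particle was split. Rpl11 rose by 0.33 (SE 0.07, edgeR adjusted p = 0.000413), whereas Rpl5 had 85.2, 88.9 and 95.6 CPM in non-diabetic and 81.8, 91.6 and 99.5 CPM in diabetic vehicle mice (0.04, SE 0.05, edgeR adjusted p = 0.585). The difference between these partners was not tested. Of 45 large subunit genes 39 rose (median 0.28), and of 31 small subunit genes 28 rose (median 0.33).

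Among the other canonical genes, Rps9 (0.08), Rps3a1 (0.12), Rpl22 (0.12), Rps10 (0.15) and Rpl28 (0.15) did not pass. Among paralogs and the rest, Rpl22l1 (-0.05), Rpl36al (-0.04), Rpl7l1 (-0.01), Rps4l (0.20), Rpl37rt (-0.13), Rpl6l (0.50) and Rps19bp1 (-0.18) did not pass. Rpl13a fell, from 7.21, 8.51 and 9.49 to 5.44, 6.64 and 8.36 CPM (log2 fold change -0.33, SE 0.1, edgeR adjusted p = 0.00701), with overlapping groups. That call was lost when all libraries were thinned to the smallest total (-0.19, adjusted p = 0.139). Rpl3l, the striated muscle paralog of Rpl3, was near the limit of detection at 7 to 34 counts a library. Its level fell from 1.09, 1.74 and 1.88 to 0.642, 0.966 and 1.24 CPM (log2 fold change -0.78, SE 0.21, edgeR adjusted p = 0.00378). Rps3a3, an annotated pseudogene copy of Rps3a1 at about 1 CPM, was called higher (0.86, SE 0.24, edgeR adjusted p = 0.00564), and reads could be shared with its parent.

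**Figure D2:**
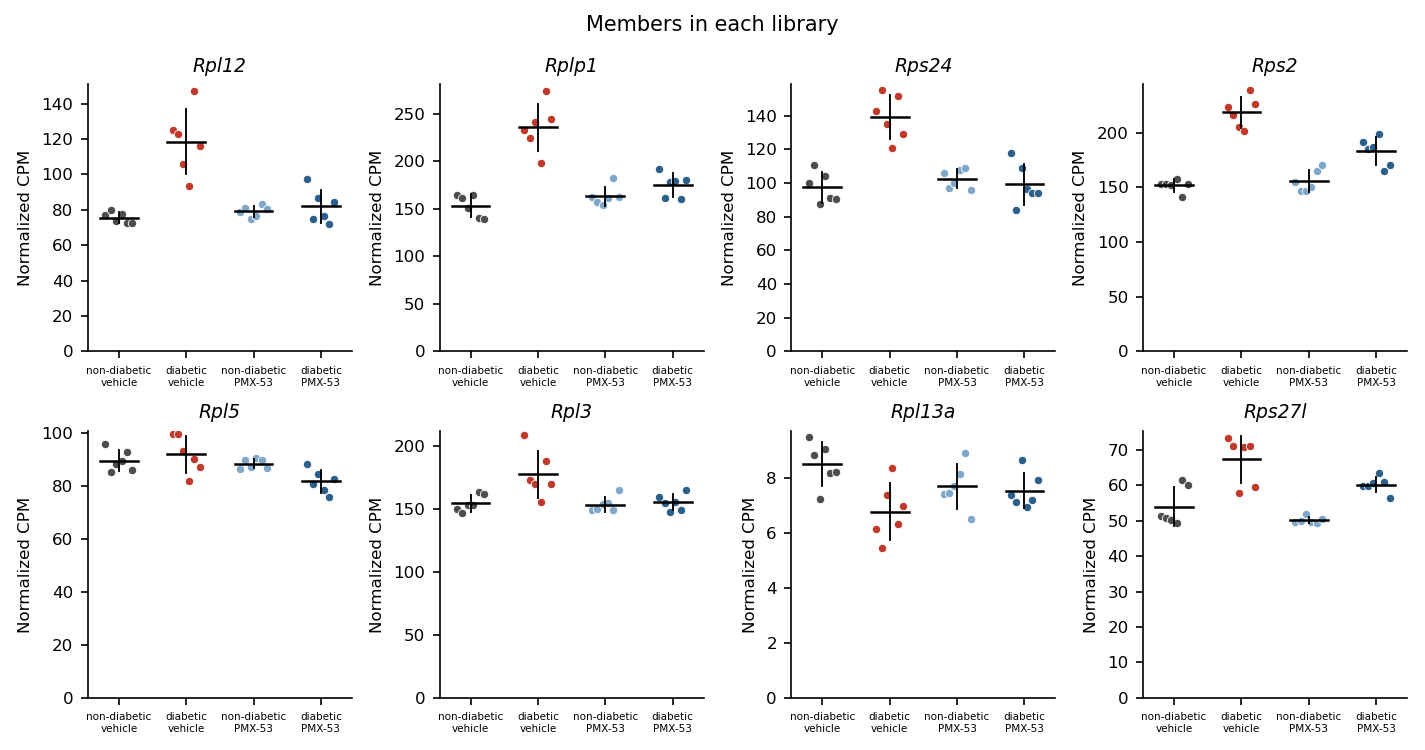
Normalized CPM of 8 members in each library (points), with group mean (horizontal line) and SD (vertical line), n = 6 per group, axes from 0. Rpl12, Rplp1, Rps24 and Rps2 are highest in diabetic vehicle mice, Rpl5 stays between 75.9 and 99.5 CPM in all groups, and Rps27l is at 56.5 CPM or more in every diabetic library of either treatment.

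In diabetic mice PMX-53 moved the family the other way. Of 86 members 67 were called lower and 0 higher in diabetic PMX-53 than in diabetic vehicle mice by edgeR, and 73 had an unadjusted p under 0.05. Over all genes 27.3% were called, 13.5% lower and 13.9% higher, and 38.3% had an unadjusted p under 0.05. The members' median log2 fold change was -0.26, against 0.003 for all genes, and for 31 members the groups did not overlap (4.29% of all genes). This comparison shares the diabetic vehicle libraries with the one above, so a high value there lowers a value here. As values, 63 of the 69 members higher with diabetes were among the 67 lower with PMX-53. On raw totals without a scaling factor, the median of all genes was 0.12, the members' median -0.15, and 35 members were called lower. That scaling put 79.5% of all calls higher, against 50.7% with the factor.

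Rpl12 had 71.9, 80.2 and 97.3 CPM in diabetic PMX-53 mice (log2 fold change against diabetic vehicle -0.53, SE 0.08, edgeR adjusted p = 1.67e-05), and its highest library overlapped the lowest diabetic vehicle library. Rplp1 had 160, 178 and 192 CPM, below all diabetic vehicle libraries (-0.43, SE 0.07, edgeR adjusted p = 3.05e-05). Rps24 had 84.2, 95.1 and 118 CPM (-0.49, SE 0.07, edgeR adjusted p = 2.77e-05), also without overlap. The 5 members with the smallest p were Rpl31 (-0.41), Rpl23 (-0.39), Rpl32 (-0.39), Rpl36a (-0.47) and Rpl12, all of the large subunit. Rpl31 lies near the exit of the peptide tunnel.

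Both 5S partners fell, Rpl11 by 0.39 on the log2 scale (edgeR adjusted p = 0.000171) and Rpl5 by 0.17 (edgeR adjusted p = 0.0103). On raw totals the Rpl5 call was lost (-0.05, edgeR adjusted p = 0.595). Rplp0 and Rpsa fell by less, 0.16 and 0.19, and both calls were lost on raw totals (-0.04 and -0.08, edgeR adjusted p = 0.67 and 0.484). The Rplp0 call was lost in 6 of 12 fits that left out 1 library (adjusted p 0.022 to 0.102), the Rpsa call in 3 of 12 (0.00876 to 0.0765). The Rplp0 call was also lost with replicate number as a block. Canonical members that did not pass were Rpl13 (-0.12), Rpl8 (-0.10), Rps9 (-0.12), Rpl10 (-0.10), Rplp2 (-0.09), Rps6 (-0.15), Rpl28 (-0.10), Rpl9 (-0.07), Rps10 (-0.11) and Rpl13a (0.16). Paralogs, copies and Rps19bp1 that did not pass ranged from -0.54 for Rpl6l to 0.10 for Rps4l.

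In non-diabetic mice no member passed with PMX-53. By edgeR 0 members were called, 1 member (Rps4l) had an unadjusted p under 0.05 against 7.22% of all genes, and DESeq2 and limma also called 0 members. Across all genes 0% were called by edgeR, and DESeq2 called 4 genes. Canonical values ran from -0.15 to 0.13, and Rpl12 was at 0.07 (SE 0.08). The members with the smallest p were Rps4l (0.37, SE 0.13, edgeR adjusted p = 0.516) and Rpl37a (0.12, SE 0.07, edgeR adjusted p = 0.761).

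Among mice on PMX-53, diabetic and non-diabetic libraries share no sample with the vehicle comparison. Here 4 of 86 members passed, 2 higher and 2 lower, against 10% of all genes (5.52% higher and 4.52% lower), and the members' median was 0. Rps2 was higher (147, 152 and 170 against 165, 186 and 199 CPM, log2 fold change 0.23, SE 0.05, edgeR adjusted p = 0.00641). Rps27l was higher, and Rpl3l (-0.98, SE 0.21, edgeR adjusted p = 0.00345) and Rpl36al (-0.22, SE 0.07, edgeR adjusted p = 0.0351) were lower. The Rpl36al call was lost in 8 of 12 fits that left out 1 library (adjusted p 0.0152 to 0.092). Rps27l was the single member with groups that did not overlap (higher in 2.97% of all genes). On raw totals Rpl3l was the 1 member that passed, with Rps2 at 0.25 (edgeR adjusted p = 0.0529) and Rps27l at 0.28 (edgeR adjusted p = 0.0601), and 65.7% of all calls were higher, against 54.9% with the factor. The remaining canonical members lay between -0.13 and 0.17.

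Set directly against non-diabetic vehicle mice, diabetic PMX-53 mice had 4 members higher and 1 lower, against 14.9% of all genes called, 7.98% higher and 6.97% lower. The 4 were Rps2 (0.27, edgeR adjusted p = 0.00115), Rpsa (0.24, edgeR adjusted p = 0.00858), Rplp0 (0.19, edgeR adjusted p = 0.0173) and Rplp1 (0.19, edgeR adjusted p = 0.0495). Every diabetic PMX-53 library had more Rps2 than every non-diabetic vehicle library, as in 3.83% of all genes. On raw totals 64.7% of all calls were higher, against 53.4% with the factor. The Rplp1 call was lost in 8 of 12 fits that left out 1 library (adjusted p 0.038 to 0.123), and with replicate number as a block. Rpl3l was the member that was lower (-0.94, SE 0.22, edgeR adjusted p = 0.00361).

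The difference between the effects of diabetes with and without PMX-53 was tested as an interaction. It was negative, meaning a lower log2 fold change on PMX-53 than on vehicle, for 47 of 86 members and positive for 0, against 9.42% of all genes called, 4.76% negative and 4.66% positive. The median was -0.29. Rpl36a (-0.56, SE 0.1, edgeR adjusted p = 0.000799), Rplp1 (-0.52), Rps29 (-0.48), Rpl12 (-0.60) and Rps24 (-0.57) had the smallest p. Without diabetic vehicle replicate 4, 56 members passed. On raw totals 17 passed, and 79.3% of all calls were positive, against 49.5% with the factor.

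**Figure D3:**
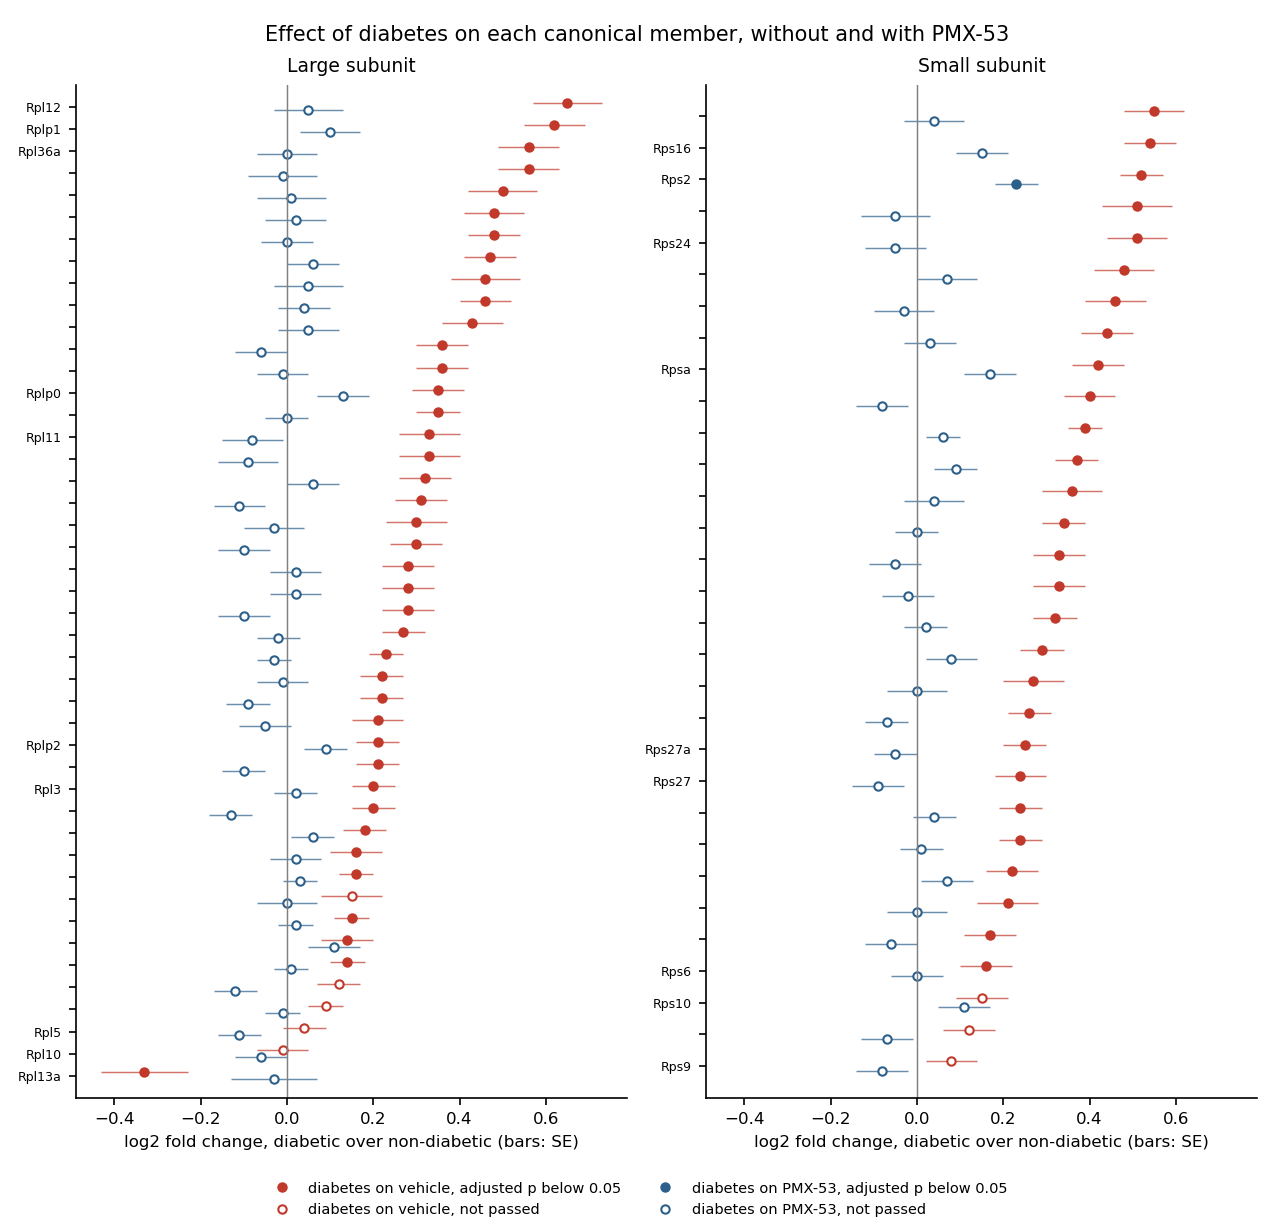
log2 fold change of diabetic over non-diabetic mice for each canonical member tested, on vehicle (red) and on PMX-53 (blue), with SE bars, 1 row per member and names on the axis for some members described in the text. Filled points passed an adjusted p of 0.05. On vehicle 67 of 76 points are filled to the right of 0 and Rpl13a to the left, while on PMX-53 only Rps2 is filled.

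Among the members, shorter coding sequences went with larger changes. In the vehicle comparison of diabetic with non-diabetic mice, the median was 0.46 for canonical genes of under 300 coding nucleotides (9 of 9 higher), against 0.34 for 300 to 450 nucleotides (25 of 27), 0.25 for 450 to 600 (15 of 18) and 0.21 for 600 to 900 (15 of 19, 1 lower). The Spearman correlation over 76 members was -0.46, and 0.57 for PMX-53 in diabetic mice. These are descriptions over genes of the same libraries. Other genes of the same lengths had medians of 0.09, 0.08, 0.04 and 0.00 in those 4 ranges. Over 13348 other genes the correlations were -0.04 and 0.10. A correction was fitted over all genes for exonic length, the total of a gene's annotated exons, which differs from the coding length above. No correction for coding length was made. With the exonic correction, 69 members were called higher and 2 lower with diabetes on vehicle. Of these 71 calls 70 were also made without it. The exonic correction gave 63 lower with PMX-53 in diabetic mice, all of them also called without it. Fragment size and RNA integrity per library are not in the sources used here, and their part in the length pattern was not tested.

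**Figure D4:**
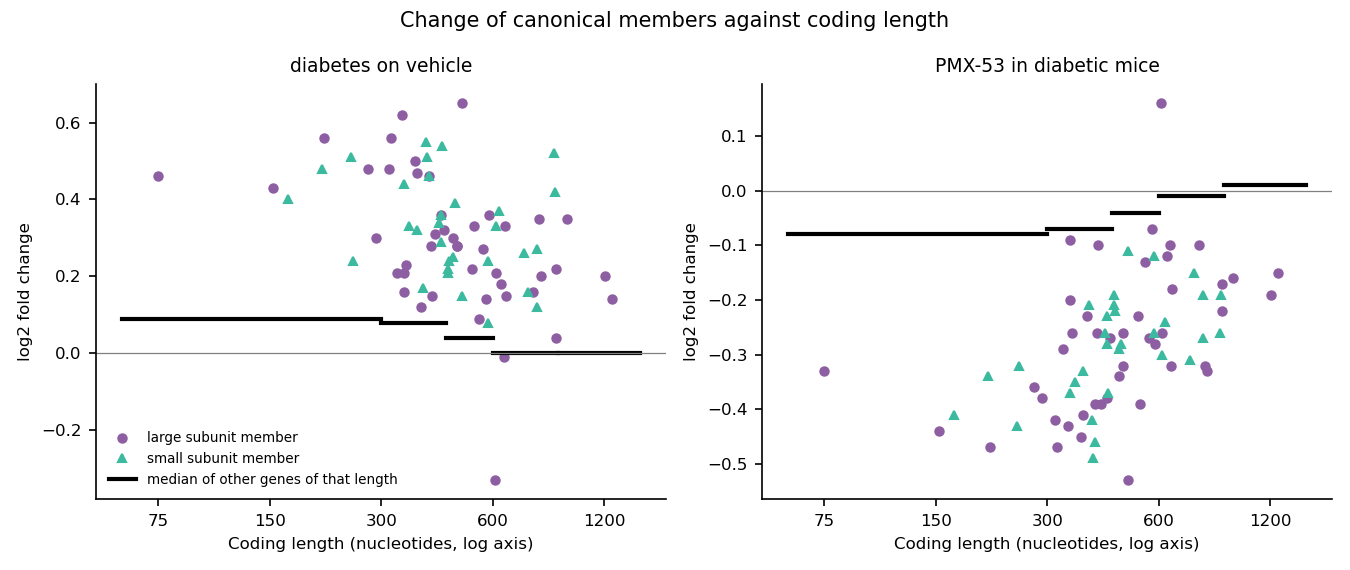
log2 fold change of each canonical member against its coding length on a log axis, for diabetes on vehicle (left) and PMX-53 in diabetic mice (right). Black lines are medians of the other genes in each length range. Short members sit farthest from 0 in both panels, with medians of 0.46 and -0.38 for those under 300 nucleotides.

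Medians were close when members were split by other features of the genes. The 30 canonical members with snoRNA genes inside had a median of 0.29 with diabetes on vehicle, and the 46 without had 0.30. The 54 canonical members whose exons overlap no other gene had a median of 0.29 (49 higher). The 31 tested members with a pyrimidine run that begins within 10 bases of the annotated start had a median of 0.29, and the 25 without had 0.30. Runs farther from the annotated start were not counted, so this split depends on where that start is placed. Pseudogene rows that match members in sequence held 19383 counts, 0.69% of the members' own 2697035. Adding them to the members, an alternative chosen after seeing the data, gave 70 higher and 2 lower of 87.

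In 3 of the tests below, the balance between a paralog and its main gene differed between groups. The ratio of paralog to main gene was tested for the 5 pairs with at least 10 paralog counts in every library, in 5 comparisons, with an exact two-sided permutation test adjusted over the 25 tests. Rpl36al, an autosomal retrogene copy of the X-linked Rpl36a, had 0.672, 0.729 and 0.803 counts per Rpl36a count in non-diabetic vehicle mice and 0.433, 0.481 and 0.538 in diabetic vehicle mice. The log2 difference was -0.59 (exact permutation p = 0.00216, the smallest 6 against 6 libraries can give, adjusted p = 0.018). Rpl36a itself rose from 20.6, 22.8 and 24.4 to 28.5, 34.1 and 37.1 CPM, while Rpl36al stayed between 14.9 and 17.9 CPM. Rpl36a and Rpl36al share much of their coding sequence, so the authors' counting could split reads between them.

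Rpl7l1, a Rpl7-like protein of ribosome assembly, fell against Rpl7 in diabetic vehicle mice by 0.21 on the log2 scale (exact permutation p = 0.00216, adjusted p = 0.018). Rpl7l1 itself was at -0.01 (SE 0.06). Rps27l, a target gene of p53, was 57.9, 70.9 and 73.3 CPM in diabetic vehicle mice, against 49.3, 51.1 and 61.6 in non-diabetic ones (log2 fold change 0.32, SE 0.06, edgeR adjusted p = 0.000145). On PMX-53 it was 49.4, 49.8 and 51.9 CPM in non-diabetic and 56.5, 60.2 and 63.4 CPM in diabetic mice, without overlap (0.26, SE 0.06, edgeR adjusted p = 0.00619). Rps27 was at -0.09 (SE 0.06) in that comparison, and the ratio of Rps27l to Rps27 differed by 0.35 (exact permutation p = 0.00216, adjusted p = 0.018). The fall of Rps27l with PMX-53 in diabetic mice (-0.16, edgeR adjusted p = 0.049) was lost in 9 of 12 fits that left out 1 library, and on raw totals (-0.04). The rise of Rps27l with diabetes on vehicle also missed the threshold on raw totals (0.22, edgeR adjusted p = 0.0578). Ratios of Rpl22l1 to Rpl22 and Rps4l to Rps4x did not pass in any of the 5 comparisons, with differences from -0.26 to 0.36.

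**Figure D5:**
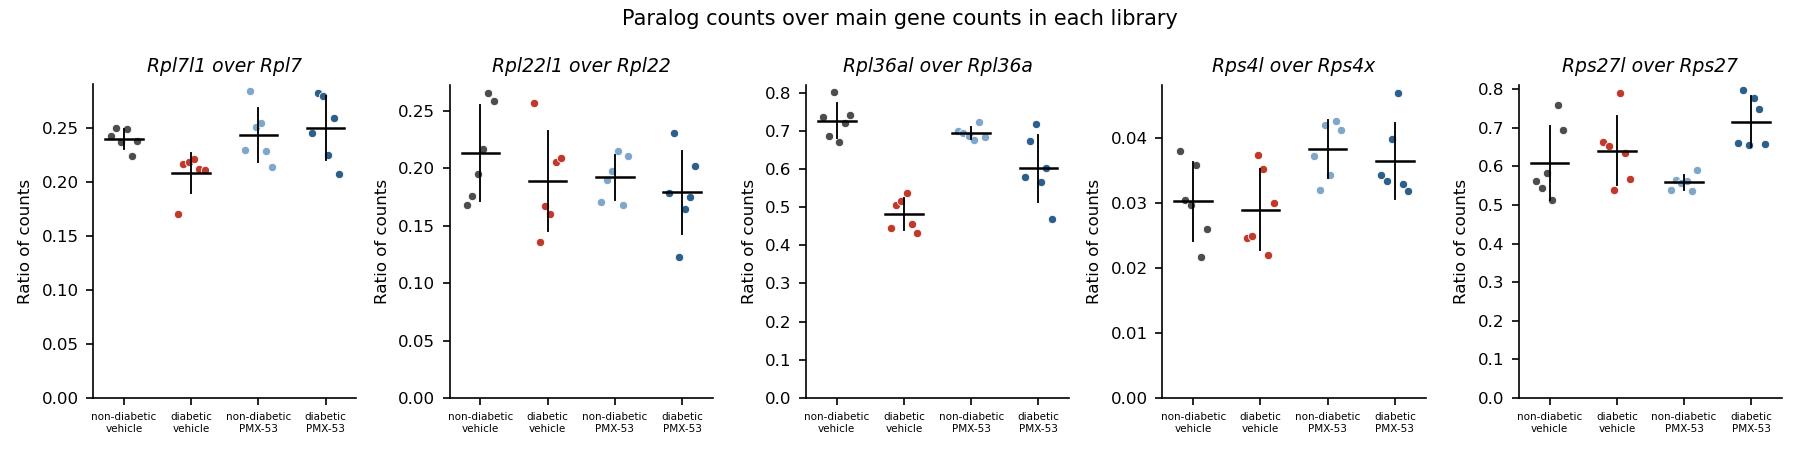
Counts of each paralog over counts of its main gene in each library (points), with group mean (horizontal line) and SD (vertical line), n = 6 per group, axes from 0. Rpl36al over Rpl36a is lowest in diabetic vehicle mice, between 0.433 and 0.538, and Rps27l over Rps27 is higher in diabetic than in non-diabetic PMX-53 mice.

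Fau and Rack1, outside the symbol rule, also rose. Fau, which encodes the small subunit protein eS30 as a fusion, rose by 0.29 with diabetes on vehicle (SE 0.07, edgeR adjusted p = 0.00139), and Rack1 by 0.17 (SE 0.05, edgeR adjusted p = 0.00343).

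The machinery that builds and drives ribosomes had genes called in both directions, read here against 20.4% higher and 19.9% lower over all genes with diabetes on vehicle. For assembly, initiation and elongation factors the share called higher was near that background. Of 15 RNA polymerase I genes 3 rose and 5 fell with diabetes on vehicle (median -0.08). The activator Ubtf fell by 0.36 (edgeR adjusted p = 1.28e-06) and was higher by 0.26 with PMX-53 in diabetic mice (edgeR adjusted p = 0.000237). Of 61 assembly factors 12 rose and 8 fell (median 0.01). Eif6, which keeps free large subunits from joining small ones, rose by 0.57 (edgeR adjusted p = 4.61e-07), Utp20 by 0.93 and Nop10 by 0.42. All 3 fell with PMX-53 in diabetic mice, where 11 assembly factors fell and 2 rose (13.5% and 13.9% over all genes). Of 35 initiation factors 8 rose and 5 fell, and of 16 elongation and termination factors 4 rose and 2 fell.

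Other mRNAs known to start with a terminal oligopyrimidine tract gave 7 higher and 2 lower of 21 with diabetes on vehicle, median 0.04, and 9 lower and 1 higher with PMX-53 in diabetic mice, median -0.13. This list includes Fau and Rack1. Hnrnpa1 rose by 0.40 and Nap1l1 fell by 0.54. Among 22 regulators of ribosomal protein mRNA translation 3 rose and 2 fell, fewer in share than the 20.4% and 19.9% of all genes, and Eif4ebp1, the mTOR-regulated translation repressor, rose (0.88, SE 0.13, edgeR adjusted p = 3.61e-06). It fell by 0.63 with PMX-53 in diabetic mice. Of 17 ribosome stress and quality control genes 2 rose and 7 fell. Mdm2, the ligase bound by Rpl5 and Rpl11, rose by 0.38 on vehicle (edgeR adjusted p = 1.22e-06) and by 0.27 on PMX-53 (edgeR adjusted p = 0.000942).

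Most genes of the p53 response were higher with diabetes under both treatments. Of 20 targets 17 were higher and 1 lower with diabetes on vehicle (median 0.85), against 20.4% higher and 19.9% lower over all genes. With diabetes on PMX-53, 16 were higher and 0 lower (median 0.69), against 5.52% higher and 4.52% lower over all genes. Eda2r was higher by 3.14 on vehicle (edgeR adjusted p = 3.68e-17) and by 2.52 on PMX-53 (edgeR adjusted p = 3.7e-14). The canonical ribosomal protein genes gave 67 and 1 of 76 higher in the same 2 comparisons.

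Beside other protein complexes, nuclear genes of respiratory complex I gave 27 of 37 higher with diabetes on vehicle (median 0.25) and 28 of 37 lower with PMX-53 in diabetic mice (median -0.28). Mitochondrial ribosomal protein genes gave 20 of 76 higher and 7 lower (median 0.09), and proteasome subunit genes 6 of 38 higher and 3 lower (median 0.02). Over all genes 20.4% were higher and 19.9% lower. No test of the difference between these groups of genes was made.

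Cell type markers moved with the groups, and their part in the ribosomal protein values was not tested. The 10 proximal tubule markers summed to 17300 to 19800 CPM in non-diabetic vehicle, 12400 to 15500 in diabetic vehicle and 13800 to 18000 in diabetic PMX-53 mice. With diabetes on vehicle 5 of these fell and 2 rose, while 9 of 12 distal nephron and collecting duct markers rose and 1 fell. Over all genes 20.4% were higher and 19.9% lower in that comparison. The summed distal nephron and collecting duct markers overlapped, at 3080 to 3860 CPM in non-diabetic vehicle and 2950 to 4200 CPM in diabetic vehicle mice. Leukocyte markers summed to 161 to 210 CPM in non-diabetic vehicle, 120 to 160 in diabetic vehicle and 147 to 192 in diabetic PMX-53 mice, and 5 of 12 tested fell with diabetes on vehicle. Erythroid markers summed to 344 to 641, 157 to 444 and 413 to 631 CPM in the same groups. Podocyte and endothelial markers summed to 400 to 472, 358 to 408 and 450 to 588 CPM. Of these 10 markers 7 rose with PMX-53 in diabetic mice, against 13.9% of all genes.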

How the data were processed

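The deposited file holds whole-number counts per gene for 24 libraries, made by the authors and not normalized. Per the submitters' processing notes, bcl2fastq 2.20.0.422, STAR (version not given) and GRCm38 were used. No source used here names the counting tool or its use of strand, although the library kit was directional, per the labels' protocols. Members and gene lists were chosen with earlier results of these data known. Counts were filtered with filterByExpr, scaled by TMM and fitted with edgeR 4.0.16 (R 4.3.3, robust quasi-likelihood, 4 group means, Benjamini-Hochberg over 15808 genes). Levels are CPM on TMM-adjusted totals. The script was tested on simulated counts. Members were matched to GENCODE M21 and pseudogene rows with BLAST 2.17.0 (identity at least 90%, coverage at least 50%). Paralog ratios used a prior count of 2. Genes named in each comparison were the 5 members with the smallest p in each direction, the 2 smallest where none passed, non-passers where 3 in 4 passed, a fixed set of members and paralog pairs, and up to 3 genes of each other list. Alternatives included DESeq2 1.42.0, limma 3.58.1, other scalings and filters, thinning, and leaving out each library. Within groups, the 60 library pairs differed by a chi-square per degree of freedom of at least 5.21. No such pair therefore looked like a single library sequenced again, but this does not show that libraries came from separate mice. Results of some genes that the rule names are not reported here.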

Additional observations from a re-analysis of the deposited data

Results flagged for a closer look

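In 188 groups of 6 libraries screened (levels of 45 named members, the summed level and the ratio of large to small subunit sums), 8 had a lowest or highest library set apart from the nearest other by more than Dixon's critical share of the group's range. Chance flags about 1 in 20 such groups. Non-diabetic vehicle replicate 5 had 141 CPM of Rps2, the others 152 to 158. Non-diabetic PMX-53 replicate 5 had 182 CPM of Rplp1 (others 154 to 162), 111 CPM of Rpl23 (96.5 to 102) and 1.16 CPM of Rps3a3 (0.603 to 0.76). Non-diabetic PMX-53 replicate 6 had 72.1 CPM of Rps6 (others 55.5 to 61.2) and a large to small ratio of 1.36 (others 1.4 to 1.42). Diabetic vehicle replicate 4 was low for Rps27, 89.6 CPM (others 105 to 112), and for Rpl23, 104 CPM (others 122 to 131).

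The effect of diabetes differed between vehicle and PMX-53 mice, by the interaction term in edgeR, for 47 members, all with a lower log2 fold change on PMX-53 than on vehicle. On raw totals 17 passed, and Rpl11, Rpl22, Rpl39, Rpl7, Rps27 and Rps27a were among those that missed the threshold. With the scaling factor, the 47 included, in the large subunit, Rpl12 (-0.60), Rpl36a (-0.56), Rplp1 (-0.52), Rpl37a (-0.48), Rpl11 (-0.42), Rpl23 (-0.42), Rpl31 (-0.41), Rpl32 (-0.41), Rpl39 (-0.38), Rpl7 (-0.33) and Rpl22 (-0.24). In the small subunit they included Rps24 (-0.57), Rps29 (-0.48), Rps16 (-0.38), Rps27 (-0.33), Rps2 (-0.30) and Rps27a (-0.30).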

How the results depend on the processing

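Counts of members called stayed within 1.5 times the reported ones under all settings but those named here. On raw totals without a scaling factor, 45 members passed for diabetes on vehicle, 35 for PMX-53 in diabetic mice, 1 for diabetes on PMX-53 and 17 for the interaction. For diabetic PMX-53 against non-diabetic vehicle mice, 8 members passed with limma voom, 8 with the length correction and 8 with the length correction and the replicate block. Leaving out each library in turn gave 67 to 73 members for diabetes on vehicle, 60 to 68 for PMX-53 in diabetic mice, 0 for PMX-53 in non-diabetic mice, 3 to 5 for diabetes on PMX-53, 4 to 6 for diabetic PMX-53 against non-diabetic vehicle mice, and 42 to 56 for the interaction. Of 58 calls of named members 52 held in every fit without 1 library, 32 held under every setting, and 17 were lost on raw totals alone; the cause was not tested. Without 1 library the Rpl36al ratio ran from 0.26 to 0.38 (PMX-53 in diabetic mice), -0.27 to -0.15 (diabetes on PMX-53) and -0.34 to -0.21 (diabetic PMX-53 against non-diabetic vehicle), and the Rpl7l1 ratio from 0.20 to 0.31 (PMX-53 in diabetic mice), passing only without diabetic PMX-53 replicate 6 in the comparisons of PMX-53 in diabetic mice and replicate 3 in the others. Without mitochondrially encoded and ribosomal RNA genes, 70, 66, 0, 4, 5 and 47 members passed in the 6 comparisons in the order of the report. With replicate number as a block, 71, 65, 0, 4, 5 and 44 members passed in the same order. Replicate numbers showed no pairing of samples in correlations over all genes tested. Of 36 same-numbered pairs 3 correlated above 0.1 (range -0.12 to 0.13), and 0 of 24 libraries correlated best with its own number. A shared effect limited to some genes could pass unseen in these correlations. Totals of 10964992 counts or more left 6 of 92 members untested.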
